A study of Arabidopsis thaliana with 4 samples.

Results

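The PRA1 (prenylated Rab acceptor) genes of Arabidopsis thaliana were examined in whole plants of the smg7b mutant and of wild type. They were taken as the probe sets paired with 1 gene whose symbol in the platform gene table starts with PRA and a digit, and whose log2 signal averaged over the 4 arrays reached 4.32. Of 11 such probe sets 10 met that level, among 13513 single-gene probe sets in all, each for a different gene. The RefSeq gene table lists 19 PRA1 genes, so the 10 cover part of the family: PRA1.B1, PRA1.B4 and PRA1.B6 of clade B, PRA1.F1, PRA7 and PRA8 of clade F, and PRA1.A1, PRA1.E, PRA1.G2 and PRA1.H. RefSeq gives PRA7 as PRA1.F2 and PRA8 as PRA1.F3, and it names all 10 as prenylated Rab acceptors. Members were selected on their mean level over both genotypes, so their levels are a description, and the difference between the genotypes had no part in that step. Nearest inside the limit was PRA1.G2, with a mean log2 signal of 4.66. The 1 gene outside it was PRA1.G1, with a mean of 1.80. Its signals were 3.78 and 3.76 in smg7b, against 0.557 and 18.6 in wild type, and on 3 of the 4 arrays it lay at or under background. It was too dim to be tested. A further 2 probe sets that the table pairs with PRA1.F4 also carry a second gene and were not used.

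The mutant plants were smg7b, a T-DNA insertion line in the Col-0 background (SALK_050115, stock N550115), and the plants they were set against were wild-type Col-0. Such an insertion is foreign DNA, delivered by Agrobacterium, that can break the gene where it integrates. Each genotype had 2 samples of total RNA from whole plants, each hybridised to an ATH1 array. All plants were 17 days past germination, grown at 22 °C in constant light. By its title the study set out to find genes controlled through SMG7b, which acts in nonsense-mediated mRNA decay, the pathway that removes mRNAs with early stop codons. Only 1 insertion line was measured, so the insertion and other changes carried by that line cannot be told apart.

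PRA1 proteins are small membrane proteins of the secretory pathway. Rab GTPases, the switches that direct vesicles to their target membranes, carry prenyl lipid anchors and travel through the cytosol bound to a GDI protein. PRA1 proteins bind prenylated Rabs, and the mammalian and yeast relatives are known for helping to release Rabs from GDI at a membrane. In plants the family has many more members than in animals, and its proteins have been placed at the endoplasmic reticulum (ER), the Golgi and endosomes.

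Array quality differed along with genotype. The ratio of the 3' to the 5' Actin control probe set, which grows as RNA is degraded or copied incompletely, was 25.8 and 9.65 on the smg7b arrays, against 2.22 and 8.62 on the wild-type arrays. Wild-type replicate 1 thus had the most complete Actin signal and smg7b replicate 1 the least, while both replicate 2 arrays were close to each other. The same ratio for the GAPDH control was 2.26 and 1.41 in smg7b, against 0.960 and 1.22 in wild type, higher on both smg7b arrays. The Actin ratio was likewise higher on both smg7b arrays than on either wild-type array. A call lost with either ratio in the fit therefore cannot be assigned to array quality or to genotype. The bioB hybridisation controls averaged 115 and 91.7 in smg7b and 42.7 and 95.3 in wild type, so wild-type replicate 1 stood apart there too. Between 72.0% and 75.5% of plant probe sets lay above background, taken as the brightest Bacillus control of the array (6.42 to 9.21). The targeted gene SMG7L (AT1G28260) read 16.7 and 14.4 in smg7b, against 49.7 and 46.8 in wild type. Of 22 tissue markers 2 had a single-gene probe set. The leaf gene RCA, Rubisco activase, read 4436 and 4187 in smg7b and 4746 and 6341 in wild type. The root hair expansin gene EXPA7 was above background on 1 array, and flower and seed markers had no single-gene probe set here.

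Of the 10 PRA1 genes, 3 fell in smg7b and 0 rose, as judged by limma (Benjamini-Hochberg adjusted p under 0.05 over all 13648 tested probe sets). They were PRA1.B6, PRA1.F1 and PRA8. Of all tested probe sets 9.00% were called lower and 11.3% higher, 20.3% in either direction. Fitted log2 changes were below 0 for 7 of the 10, as they were for 51.1% of all tested probe sets. At an unadjusted p under 0.05, 6 PRA1 genes were lower and 0 higher, against 16.4% and 17.2% of all tested probe sets. The genotypes did not overlap for 7 of the 10 genes, 6 of them lower in smg7b and 1 higher, against 61.3% of all tested probe sets, 31.2% lower and 30.1% higher. The members' median log2 change was -0.55, while that of all tested probe sets was -0.01. No PRA1 gene was called in every fit that left out 1 array. Such a fit leaves 1 array in a genotype, so its calls are not set against the share of all probe sets. Over these fits the members' median log2 change ran from -0.80 to -0.26. In bulk tissue, fewer cells of a type and less RNA per cell cannot be told apart. With 2 arrays per genotype an exact permutation test cannot go below 0.333, so each call rests on a spread pooled across probe sets. Whether the replicates were separate plants or pools is not stated in the labels, so p-values reflect only how these samples vary, possibly for technical reasons.

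**Figure D1:**
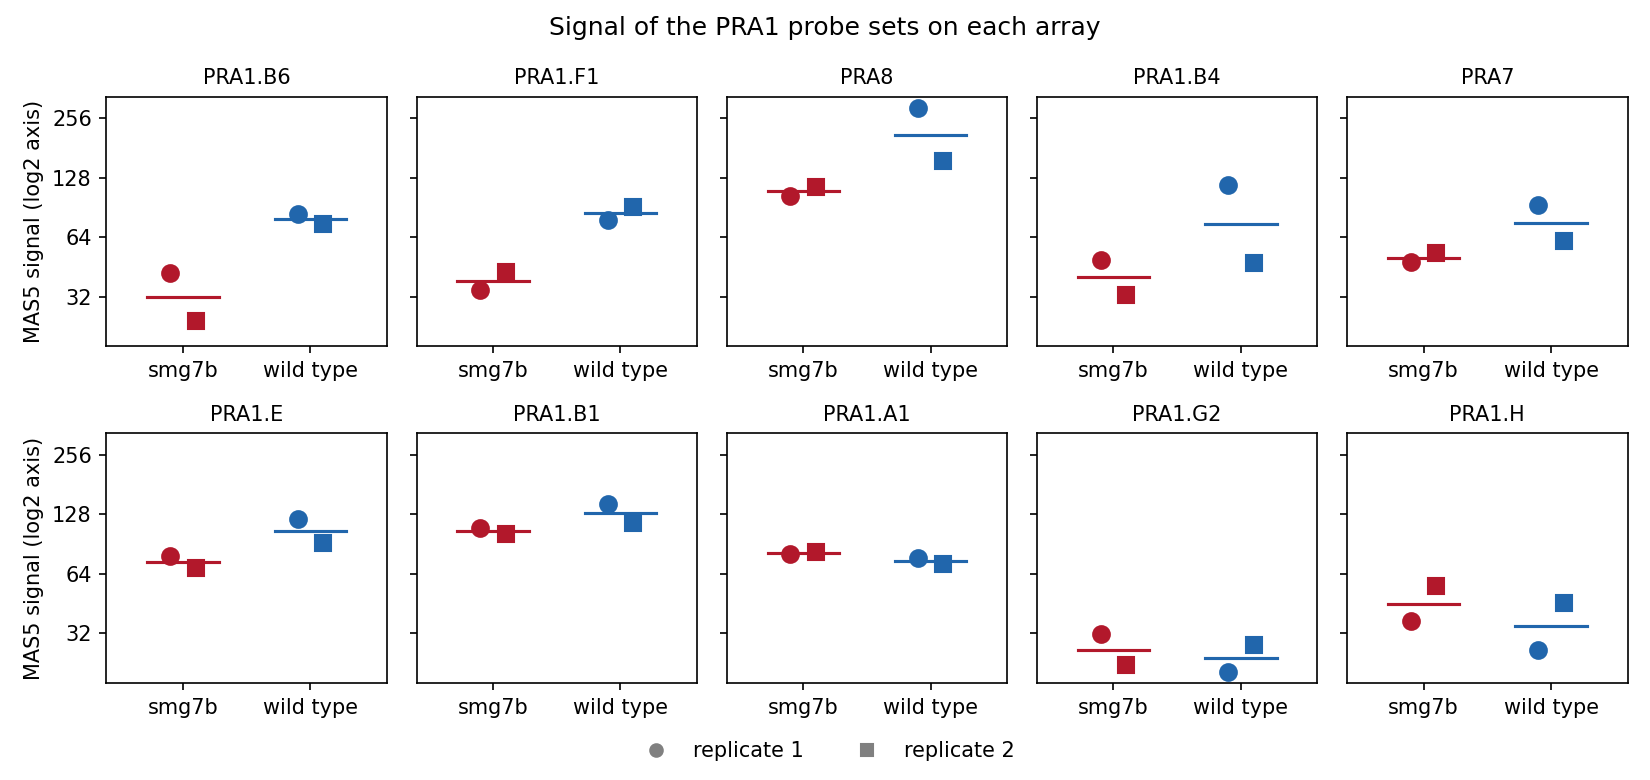
MAS5 signal (log2 axis) of the 10 PRA1 probe sets, smg7b on the left of each panel and wild type on the right, with circles for replicate 1, squares for replicate 2 and a line at the mean of the log2 values. PRA1.B6 and PRA1.F1 show a gap between genotypes wider than that between replicates, whereas PRA8 and PRA1.B4 differ widely between the 2 wild-type arrays.

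PRA1.B6 (AT5G07110) is the member whose Arabidopsis protein, when overproduced, is known to hold back cargo on its way out of the ER. Its probe set read 42.0 and 24.2 in smg7b, against 83.7 and 74.6 in wild type. Both smg7b arrays lay below both wild-type arrays, although the smg7b replicates differed 1.73-fold from each other. On the log2 scale the change was -1.31 (SE 0.29, 2 arrays per genotype; 95% interval -1.95 to -0.67), with a limma adjusted p of 0.00876. Wild type was thus 2.48-fold above smg7b, and PRA1.B6 ranked 206 from the lowest among all tested changes. The call was lost without smg7b replicate 2, where the change was -0.91. Over the fits that left out an array the change ran from -1.70 to -0.91. Adding the Actin 3'/5' ratio to the fit gave -1.56, also called (adjusted p = 5.98e-04), though that fit used a pooled spread alone. The GAPDH 3'/5' ratio gave -1.91 (adjusted p = 0.0326).

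The other measured genes of clade B, PRA1.B4 (AT2G38360) and PRA1.B1 (AT3G56110), did not pass the test. PRA1.B4 read 49.0 and 32.7 in smg7b, against 118 and 47.6 in wild type. The lower wild-type array lay just under the higher smg7b array, so the genotypes overlapped, and the wild-type replicates differed 2.48-fold. Its log2 difference of -0.90 (SE 0.38; 95% interval -1.73 to -0.08) had an adjusted p of 0.116 in limma. The difference was -0.25 when wild-type replicate 1 was left out and -1.56 when wild-type replicate 2 was, each fit keeping 1 wild-type array. With the Actin ratio in the fit it was -0.35 (limma adjusted p = 0.626, from a pooled spread alone). PRA1.B1 read 110 and 101 in smg7b, against 145 and 116 in wild type. These ranges did not touch, with a log2 difference of -0.30 (95% interval -0.76 to 0.16, adjusted p = 0.347 in limma). With 1 array left out it ran from -0.46 to -0.14, weakest when wild-type replicate 1 was dropped. The lower end of that interval stands for smg7b at 0.592 of the wild-type level.

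All 3 measured genes of clade F had both smg7b signals below both wild-type signals, which held for 31.2% of all tested probe sets. PRA1.F1 (AT1G17700) read 34.6 and 42.6 in smg7b, against 78.6 and 90.6 in wild type. Replicates of each genotype lay within 1.23-fold of each other. The log2 change of -1.14 (SE 0.24, n = 2 per genotype; 95% interval -1.67 to -0.61) had a limma adjusted p of 0.00685, the lowest of the 10 genes. Leaving out smg7b replicate 1 ended its call (-0.99, adjusted p = 0.0920). The values without each array ran from -1.29 to -0.99, the narrowest range among the 3 called genes. With the Actin ratio in the fit the change was -1.13, still called (adjusted p = 0.0170), though that fit used a pooled spread alone. With the GAPDH ratio it was -0.97, not called (adjusted p = 0.342), while the SE widened from 0.24 to 0.43.

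PRA8 (AT3G13720), the second clade F gene, is a close genome neighbour of PRA1.F4 by locus number. It read 104 and 115 in smg7b, against 288 and 155 in wild type. The smg7b replicates were close to each other, whereas wild-type replicate 1 read 1.87-fold above replicate 2. The log2 change was -0.95 (SE 0.27; 95% interval -1.54 to -0.36), with a limma adjusted p of 0.0278. Of the 4 fits with an array left out, this call held only without wild-type replicate 2, where the change was -1.40. That fit leaves the higher wild-type array alone, and its p-values are too small for variable probe sets. The change was -0.50 (adjusted p = 0.139) without wild-type replicate 1, -0.88 (adjusted p = 0.191) without smg7b replicate 1 and -1.02 (adjusted p = 0.0832) without smg7b replicate 2. It was -0.32 (adjusted p = 0.544) with the Actin ratio in the fit, -0.43 (adjusted p = 0.784) with the GAPDH ratio, and -0.95 without the filter on dim probe sets (adjusted p = 0.0517) or without the intensity trend (0.0608).

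PRA7 (AT1G55190), the third clade F gene, read 47.8 and 53.1 in smg7b, against 93.3 and 60.9 in wild type. As with PRA8, the smg7b arrays were close together and wild-type replicate 1 was the high one. The log2 difference was -0.58 (95% interval -1.15 to -0.01, adjusted p = 0.142 in limma), and without wild-type replicate 1 it was -0.27. PRA1.E (AT1G08770), the only member of its clade, had signals of 79.2 and 68.8 in smg7b, against 121 and 92.0 in wild type. The genotypes did not overlap, and the log2 difference was -0.51 (95% interval -1.01 to -0.02, adjusted p = 0.135 in limma). Dropping wild-type replicate 1 gave -0.32 (adjusted p = 0.435). Without wild-type replicate 2 both passed the threshold, PRA7 at -0.89 (adjusted p = 0.00753) and PRA1.E at -0.71 (adjusted p = 0.0240). In that fit limma gave every probe set the pooled spread alone, which makes its p-values too small for variable probe sets, and it did so too in the fit lacking wild-type replicate 1 and in the one with the Actin ratio.

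The genes of clades A, G and H had fitted differences above 0, and none of the 3 passed the test. PRA1.A1 (AT5G02040) had the closest replicates of the family, with 80.9 and 82.9 in smg7b, against 77.1 and 71.8 in wild type. Its log2 difference was 0.14 (95% interval -0.33 to 0.61, adjusted p = 0.692 in limma). PRA1.G2 (AT5G56230) read 31.8 and 22.1 in smg7b, against 20.5 and 27.9 in wild type, with overlapping genotypes and a log2 difference of 0.15 (95% interval -0.59 to 0.88, adjusted p = 0.796 in limma). PRA1.H (AT4G27540) read 37.0 and 55.6 in smg7b, against 26.4 and 45.7 in wild type. The genotypes overlapped here too, and the log2 difference was 0.38 (95% interval -0.34 to 1.10, adjusted p = 0.455 in limma). The sign was not settled for either: dropping wild-type replicate 1 gave -0.07 for PRA1.G2 and -0.014 for PRA1.H. PRA1.G2 also gave -0.12 when smg7b replicate 1 was dropped, and -0.36 once the fit held the Actin ratio.

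**Figure D2:**
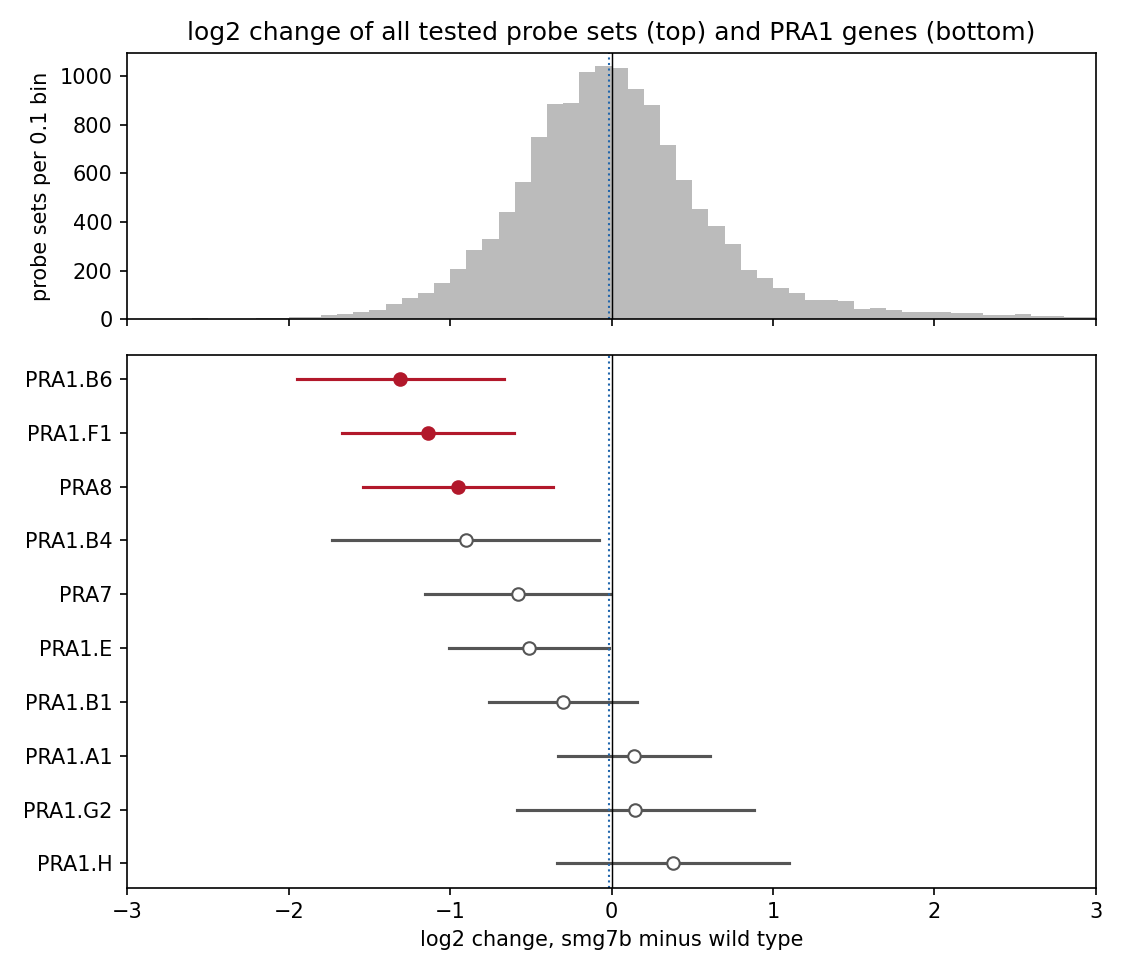
Top, number of tested probe sets per 0.1 of log2 change (smg7b minus wild type, shown between -3 and 3). Bottom, log2 change of each PRA1 gene with its 95% interval, filled and red where called and open where not. The dotted line marks the median of all tested probe sets (-0.01), and the 3 called genes lie at -1.31, -1.14 and -0.95.

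The PRA1 genes differed in how far apart the arrays of 1 genotype lay. Among the 7 genes with a fitted change below 0, wild-type replicate 1, the array with the lowest Actin 3'/5' ratio, was the highest array for 6, PRA1.F1 being the exception. The same array was the highest for 53.8% of all tested probe sets with a fitted change below 0. The 2 wild-type arrays differed by a median of 0.42 on the log2 scale over the 10 genes, against 0.27 over all tested probe sets, and the 2 smg7b arrays by 0.25, against 0.21. The replicate 2 arrays, whose Actin ratios were 9.65 in smg7b and 8.62 in wild type, form a pair of similar Actin ratio. Between them, with 1 array each and no test, the log2 difference was -1.62 for PRA1.B6 and -1.09 for PRA1.F1. It was smaller for PRA1.B4 (-0.54), PRA8 (-0.43), PRA1.E (-0.42), PRA7 (-0.20) and PRA1.B1 (-0.20). Of the genes with fitted changes above 0, PRA1.G2 gave -0.34, PRA1.A1 0.21 and PRA1.H 0.28. The GAPDH ratios of this pair were 1.41 in smg7b and 1.22 in wild type. Whether array quality shaped these differences was not tested. Over the 10 genes the median change was -0.26 when wild-type replicate 1 was left out and -0.80 when wild-type replicate 2 was, and it was -0.34 with the Actin ratio in the fit, where PRA7 gave -0.13, PRA1.E -0.36 and PRA1.B1 -0.15.

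**Figure D3:**
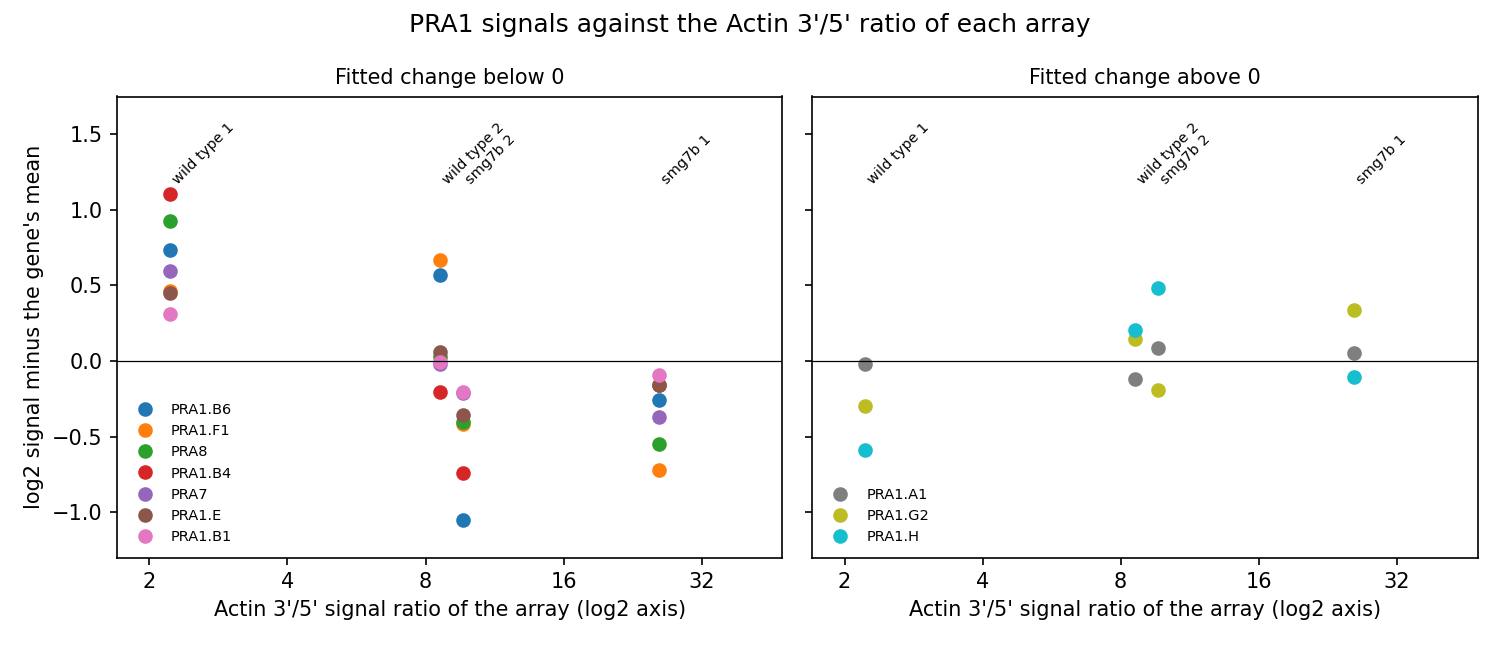
Log2 signal of each PRA1 gene minus its own mean over the 4 arrays, plotted against the Actin 3'/5' ratio of the array (log2 axis), for the 7 genes with a fitted change below 0 (left) and the 3 above 0 (right). All 7 genes on the left lie above their mean on wild-type replicate 1 (ratio 2.22), and PRA1.B6 and PRA1.F1 also lie well above it on wild-type replicate 2 (ratio 8.62).

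**Figure D4:**
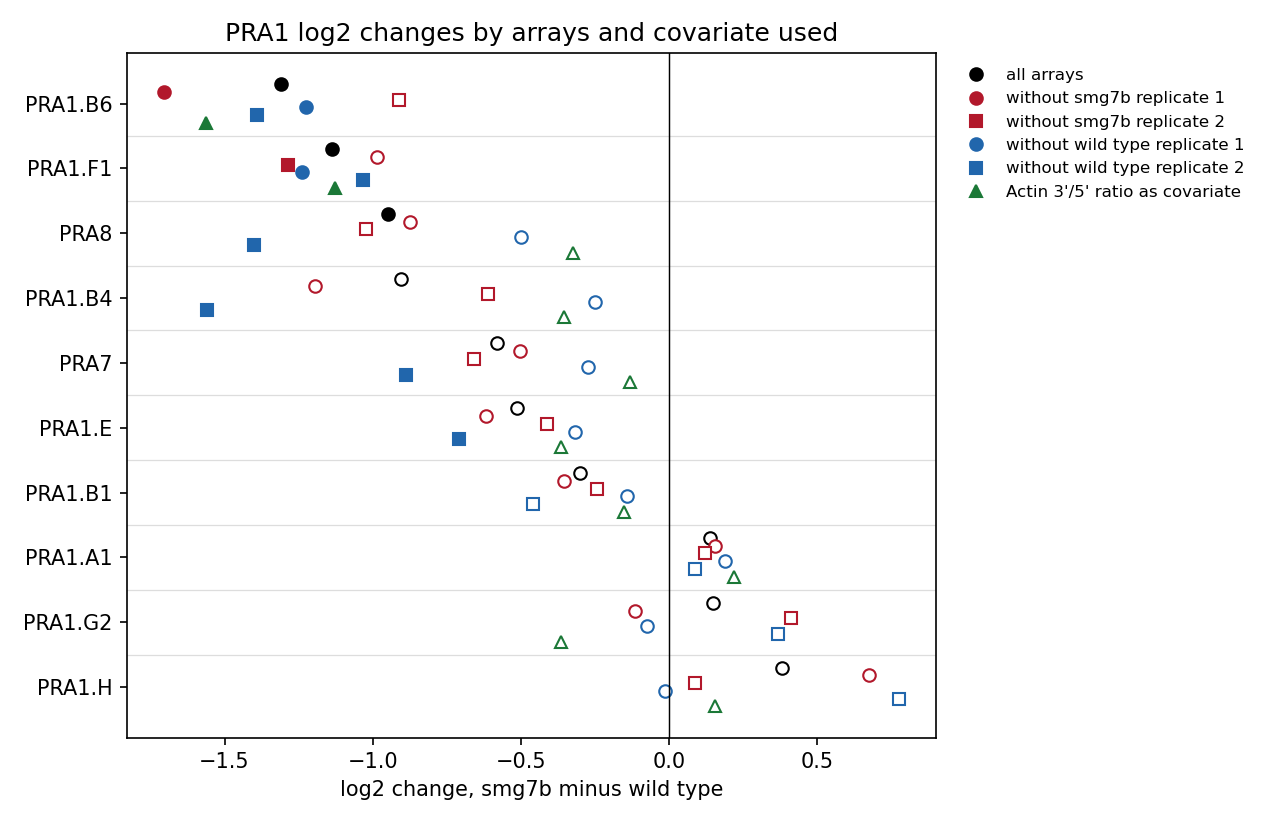
Log2 change (smg7b minus wild type) of each PRA1 gene with all arrays, with each array left out in turn, and with the Actin 3'/5' ratio added to the fit; filled symbols have a limma adjusted p under 0.05. PRA1.B6 and PRA1.F1 stay below -0.9 in each fit shown, whereas PRA8 spans -1.40 to -0.32 and PRA1.B4 spans -1.56 to -0.25.

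Pairs of members were compared by the root mean square distance of their log2 signals over the 4 arrays, each gene centred on its own mean. The closest pair was PRA1.E and PRA1.B1, at 0.12, followed by PRA7 with PRA1.E at 0.15 and PRA7 with PRA1.B1 at 0.20. The clade F genes PRA8 and PRA7 were 0.21 apart. PRA1.B6, the member of largest change, was nearest to PRA1.F1 within the family, at 0.42. Over all 7343 other tested single-gene probe sets, the 3 nearest to PRA1.B6 were AT3G56810 (distance 0.11), AT2G20550 (0.12) and AT3G50560 (0.12). Their log2 changes were -1.22, -1.32 and -1.45. They were picked for likeness over the same arrays to a gene with a large fall, which fixes changes of about that size, so no test is given. Likeness over 4 arrays is a description only.

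Other genes of membrane traffic and of ER stress were sparsely named on the array, 13 of 129 listed having a tested single-gene probe set. Of the 8 on the Rab, prenylation and ER to Golgi transport lists, limma called 0, where 20.3% of all tested probe sets were called. At an unadjusted p under 0.05 the count was also 0, against 16.4% lower and 17.2% higher over all. Both counts lie below those shares, and with 8 genes the gap was not tested. The 2 Rab GTPase genes were RABF1, a plant type of Rab5, and RABH1B, a Rab6 relative, with log2 differences between -0.38 and 0.16. The 2 genes of the Rab cycle and prenylation list, the CAAX protease gene STE24 and MON1, which helps to activate Rab7, lay at -0.20 and -0.18. The 4 genes of ER to Golgi transport (RER1A and RER1C, retrieval receptors, SEC31B of the COPII coat and the SNARE gene SEC22) ranged from -0.40 to 0.07. These 8 genes are named after their values were seen. Without wild-type replicate 2, 1 of the 2 Rab GTPase genes and 1 of the 4 transport genes were called, in the fit whose p-values are too small and where 31.7% of all tested probe sets were called. No gene of the post-Golgi SNARE list had a single-gene probe set here.

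The ER stress list moved the other way from the called PRA1 genes. All 5 of its tested genes (of 15 listed) were called higher in smg7b by limma, where 11.3% of all tested probe sets were. The list was chosen with earlier results of these data known, so this count only describes its genes. The median log2 change was 0.97, against -0.01 over all tested probe sets. ERDJ3B, a DnaJ co-chaperone of the ER, read 1217 and 1047 in smg7b, against 272 and 380 in wild type, a rise of 1.81 (SE 0.22, adjusted p = 1.51e-04). BZIP60, a transcription factor of the unfolded protein response, read 484 and 379 in smg7b, against 130 and 118 in wild type, a rise of 1.79 (SE 0.20, adjusted p = 7.59e-05). The groups of both genes lay far apart. The calnexin gene CNX2 rose by 0.88 (SE 0.22, adjusted p = 0.0171) and BZIP28, another transcription factor of that response, by 0.64 (SE 0.20, adjusted p = 0.0401). The calreticulin gene CRT2, named after its value was seen, rose by 0.97 (SE 0.21, adjusted p = 0.00675). With 1 array left out, ERDJ3B rose by 1.57 to 2.06, BZIP60 by 1.62 to 1.97 and CRT2 by 0.82 to 1.13. CNX2 rose by 0.64 to 1.12 and BZIP28 by 0.53 to 0.75. CRT2, CNX2 and BZIP28 did not keep their call in all of these fits, which leave 1 array in a genotype. The BZIP28 call also ended after centring on array medians (limma adjusted p = 0.0840) and after quantile normalization (0.0713). It ended too without an intensity trend (0.0727) and with the Actin ratio in the fit (0.263). With the GAPDH ratio in the fit, 3.83% of all tested probe sets were called, and BZIP60 alone of the 5. ERDJ3B gave 1.42 there (limma adjusted p = 0.0613).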

How the data were processed

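The files hold 1 signal per probe set and array, an intensity on a linear scale that the authors made with MAS5 and GCOS, per the submitters' processing notes, with versions not given in the sources used here. In the deposited values the 2% trimmed mean of each array was 100.01, a common scaling. Dim probe sets keep noisy values under this scheme. All 22746 probe sets other than the 64 controls were converted to log2 without a pseudocount, and the 13648 whose mean log2 reached the 40th percentile (4.32) were tested with limma 3.58.1 in R 4.3.3 (lmFit, then eBayes with an intensity trend), genotype being the only term. The fit had 11.6 total degrees of freedom, 9.63 of them from the prior. Fold changes, standard errors and 95% intervals come from this fit, and p-values were adjusted over all tested probe sets. The script was tested on simulated data.

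Probe sets were named through the platform table (13513 with 1 gene, 503 with several, 8794 unnamed here), of which 13436 matched the RefSeq table of assembly TAIR10.1 by gene identifier. No sequence of these genes was used here, and no coordinates are printed because no build is named. The members and the gene lists were chosen with earlier results of these data known, and the lists were recalled by locus without a curated source. Every PRA1 gene was named, as were SMG7L, the called genes of each other list (where more than 4 were called, the 2 highest and 2 lowest) and the 3 genes nearest to the PRA1 gene of largest change. Genotypes and replicate numbers came from the sample titles. Over the tested probe sets, deviations of same-numbered arrays correlated at -0.15. The Actin ratio fell from replicate 1 to replicate 2 in smg7b and rose in wild type, so this value cannot settle whether the numbers pair the samples. Alternatives were other normalizations, filters, thresholds and moderation, a pseudocount of 32, each array left out, a replicate block and the Actin 3'/5' ratio in the fit. Chosen after seeing the data were a crossed replicate block, values raised to background and the GAPDH 3'/5' ratio as a covariate.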

Additional observations from a re-analysis of the deposited data

How the results depend on the processing

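Under the 20 alternatives, the values of single PRA1 genes kept their direction and side of the threshold in 174 of 195 cases, lost the call in 11, gained it in 5 and turned in 5. Most cases were genes not called with all arrays. Only the 3 called genes could lose a call, and most of the losses were for PRA8. PRA1.G2 turned to -0.07 without wild-type replicate 1, -0.12 without smg7b replicate 1 (range with an array left out -0.12 to 0.41), -0.36 with the Actin 3'/5' ratio and -0.49 with the GAPDH 3'/5' ratio as a covariate. PRA1.H turned to -0.014 without wild-type replicate 1 (range -0.014 to 0.78). The number of PRA1 genes called, 3 with all arrays, was 1 at the 60th percentile filter, which leaves 5 of the 10 tested, 1 with the GAPDH ratio and between 1 and 6 with an array left out (1 without either smg7b array, 6 without wild-type replicate 2). The members' median was -0.38 with a pseudocount of 32, which shrinks changes by construction, -0.34 with the Actin ratio and between -0.80 and -0.26 with an array left out. Calls over all probe sets, 2771 at first, were 1335 at a threshold of 0.01, 1709 with the Actin ratio, 523 with the GAPDH ratio and from 980 to 4325 with an array left out. Of the 13 pathway genes, 5 were called with all arrays, 3 at a threshold of 0.01, 1 with the GAPDH ratio and 2 to 7 with an array left out. The cause of these shifts was not tested, apart from the stricter threshold and filter. As shares of all tested probe sets, calls were 20.3% with all arrays, 23.3% at the 60th percentile filter and 3.83% with the GAPDH ratio. With an array left out, calls over all probe sets were also fewest without smg7b replicate 1 and most without wild-type replicate 2. The swing in the PRA1 count between settings is therefore not particular to PRA1 genes. Centring each array on its median moved the median of all tested probe sets from -0.01 to -0.13 and the share of calls that were higher from 55.7% to 42.2%. The replicate block called 4 PRA1 genes, adding PRA1.B4 (adjusted p = 0.0378), 2488 probe sets in all and 4 of the 5 ER stress genes, BZIP28 losing its call (adjusted p = 0.0665). Because the numbers correlated negatively, crossed pairs were also tried, which called 4 PRA1 genes and 3988 probe sets in all. Without the filter on dim probe sets and without the intensity trend PRA8 was not called (adjusted p = 0.0517 and 0.0608). With wild-type arrays left out and with the Actin ratio, p-values are too small for variable probe sets. The number of arrays limits the precision.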
